A study of Mus musculus with 10 samples.

Results

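The 37 genes described here carry long-chain fatty acids into the heart muscle cell, store them in lipid droplets and oxidise them in mitochondria. They were chosen by name from a list of fatty acid genes, with earlier results of these data known. All 37 were found among the 40690 genes of the count table. Polyadenylated RNA of heart ventricles was sequenced in 10 libraries. Of these, 5 were naive, from mice that had no operation. The other 5 were from mice given the sham surgery that goes with ischemia-reperfusion experiments. All 10 libraries were from male C57BL/6 mice aged 10 weeks, and the labels name no transgene or drug. The comparison asks what the sham procedure alone does to ventricular RNA; how long after it the hearts were taken is not stated in the labels. The labels name no batch and do not say outright that each library is a separate animal, so the p-values speak only for the spread among these 10 samples.

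The adult heart draws most of its energy from fatty acids. Lipoprotein lipase frees them from circulating triglyceride, membrane proteins and binding proteins bring them into the cell, and acyl-CoA synthetases activate them. The carnitine shuttle moves the acyl groups across the mitochondrial membranes, where repeated rounds of dehydrogenation, hydration, dehydrogenation and thiolysis shorten them. Electrons from the first step pass through the electron transfer flavoprotein to the respiratory chain, and acyl groups that are not burned are held in lipid droplets as triglyceride. Many genes of this pathway are known targets of the nuclear receptor PPAR alpha and of the estrogen-related receptors.

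Sham ventricles held less RNA of most of these genes. Of the 37 members, 28 fell, 1 rose and 8 did not pass the test (edgeR quasi-likelihood F test on all genes, Benjamini-Hochberg adjusted p under 0.05), beside 15.5% of all 13622 genes tested that were lower and 17.2% that were higher. The fall of the 28 lower members ran from 16.7% to 40.1%, so the decreases were modest in size. The log2 fold change of sham against naive had a median of -0.50 over the members and -0.05 over all genes tested; below, ± after such a value is its SE. In 18 members all 5 sham libraries lay below all 5 naive libraries, which held for 9.18% of all genes tested. At least a 1.5-fold decrease past the threshold was fitted for 11 members, beside 3.23% of all genes. The summed level of the 37 genes was 12592 to 14808 CPM (counts scaled to library size with TMM factors) in naive libraries and 9263 to 10597 in sham libraries, with no overlap. The 1 gene that rose was Angptl4, an inhibitor of lipoprotein lipase.

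**Figure D1:**
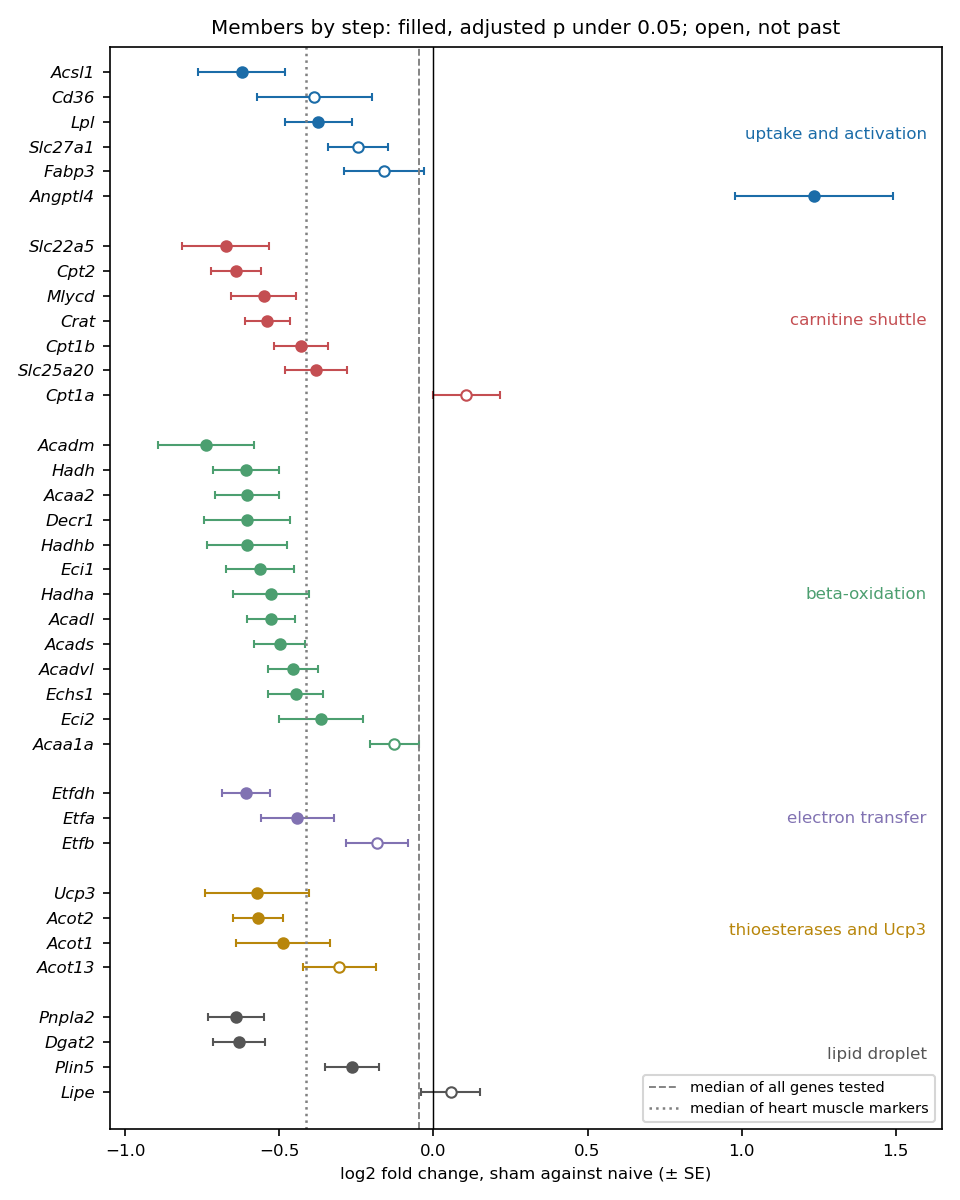
Log2 fold change of sham against naive (x axis, with SE, 5 libraries a group) for each of the 37 members, grouped by step; filled points passed the adjusted p of 0.05 and open points did not, the dashed line is the median of all genes tested and the dotted line that of 20 heart muscle markers. The 28 filled points to the left of 0 run from -0.74 for Acadm to -0.26 for Plin5, and Angptl4 stands alone on the right at 1.24.

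The size of the fall depended on what the libraries were scaled to. When TMM factors were dropped and libraries were scaled by their size alone, the median of all genes tested moved up by 0.26 and 14 members were lower and 3 higher, beside 2.08% and 32.8% of all genes. Scaled to the summed counts of 20 heart muscle markers, the median of all genes moved up by 0.34, and 7 members were lower and 3 higher, beside 0.954% and 40.4% of all genes. The 7 genes that were lower under every one of these 3 scalings were Acadm, Pnpla2, Cpt2, Dgat2, Acaa2, Hadh and Etfdh. The distance between the members' median and the median of all genes was -0.45 with TMM factors, -0.45 with library size alone and -0.46 with the heart muscle markers. A change of scaling moves all genes by nearly the same amount. This distance is therefore nearly fixed by arithmetic and tests nothing about the choice of scaling.

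**Figure D2:**
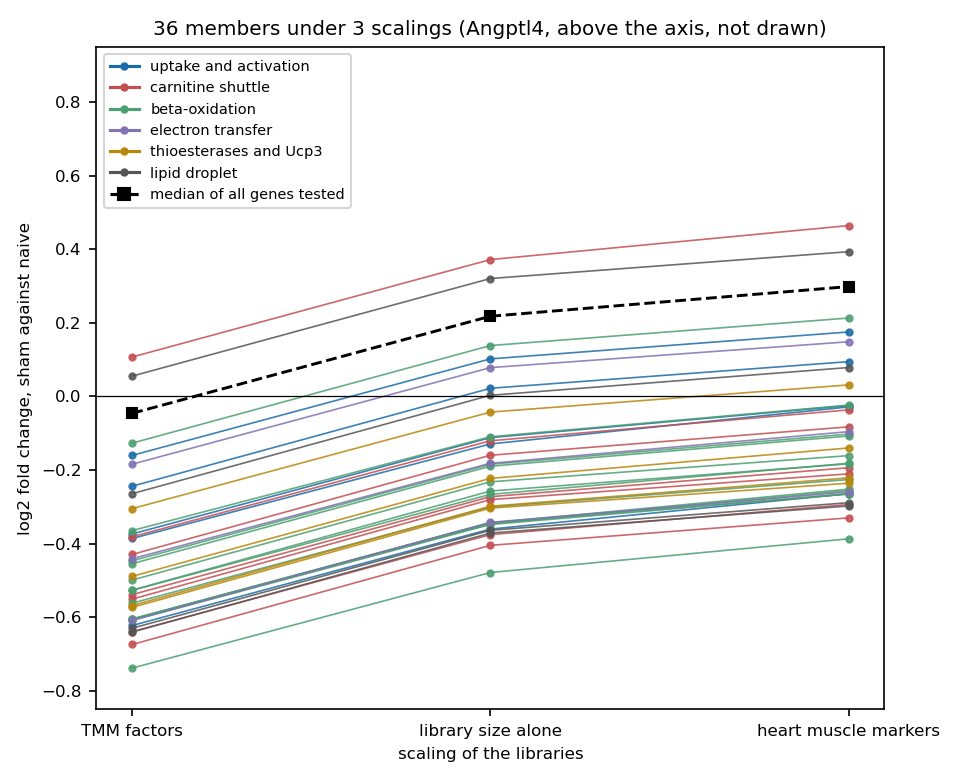
Log2 fold change of sham against naive (y axis) of 36 members under 3 scalings of the libraries (x axis), coloured by step, with the median of all genes tested as black squares, while Angptl4 lies above the axis. All lines rise together with the squares, from a median over the 37 members of -0.50 to -0.23 and -0.16, and Cpt1a and Lipe lie above the squares throughout.

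In whole ventricle, fewer cells of a type and less RNA per cell cannot be told apart. Of the 20 heart muscle markers 16 were lower, 1 higher and 3 not past, with a median log2 fold change of -0.41 and a summed level of 113147 to 119939 CPM in naive and 83887 to 100763 CPM in sham libraries. The members' median lay 0.08 below that of these markers. Of the 37 members 24 fell below the markers' median, which by definition has as many of the markers below it as above. Macrophage markers were higher in 12 of 12 cases, with sums of 444 to 543 CPM in naive and 1367 to 1695 CPM in sham libraries. Fibroblast markers were higher in 9 of 10 cases and lower in 0, with sums of 1272 to 1657 and 9415 to 16462 CPM. Endothelial markers were lower in 4 of 10 cases and higher in 0, with sums of 1407 to 1667 and 1249 to 1392 CPM. The part of these shifts in the members' values was not tested beyond the scaling to heart muscle markers. Fat and skeletal muscle use many of the same genes. The white fat hormone Adipoq had 3 counts over the 5 naive and 3 over the 5 sham libraries, and the brown fat uncoupler Ucp1 had 0 and 3. The white fat list summed to 473 to 535 CPM in naive and 380 to 468 CPM in sham libraries, nearly all of it Plin4 and Fabp4, the 2 of its 10 genes that were high enough to be tested, of which Plin4 was lower. The brown fat list summed to 80.1 to 108 and 69.0 to 84.2 CPM, with 3 of 6 genes tested and none past the threshold. The skeletal muscle list summed to 37.3 to 45.2 and 45.1 to 61.1 CPM, with 1 of 7 tested genes higher and 1 lower. Most of both sums was Mybpc2, the higher gene, with means of 33.7 CPM in naive and 46.3 CPM in sham libraries.

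Library totals ran from 9683181 to 17577906 counts in naive and from 10654107 to 21537135 in sham mice. The lowest count of any member in any library was 70, for Acot1. The naive libraries did not agree equally well on these genes. Naive 1, the shallowest library, was the lowest of the 5 naive libraries in 17 members and the highest in 10. The 17 had a median GC content of 44.5% and the 10 one of 50.1%. Across the 37 members, which are not independent replicates, the log2 distance of naive 1 from the other naive libraries ran with GC content at a Pearson r of 0.56. These counts and this correlation were not set beside those of all genes. In Acsl1, Cd36, Lpl and Mlycd, naive 5 was the opposite extreme of the naive libraries. Sham 4 was the highest of the sham libraries in 14 members and the lowest in 6. Without naive 1 and sham 4 together, 30 members were lower and 1 higher, beside 15.7% and 19.1% of all genes.

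**Figure D3:**
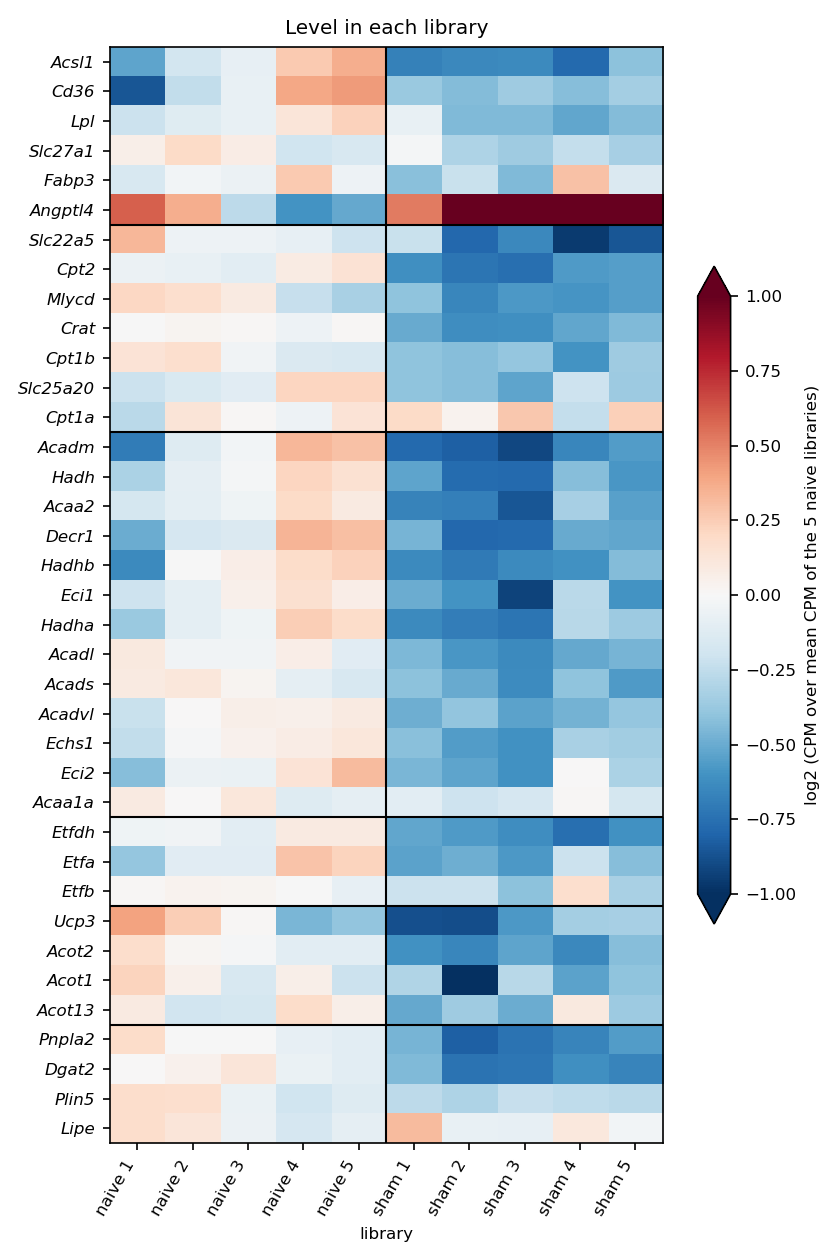
Level of each of the 37 members (rows, by step and sorted by fold change) in each of the 10 libraries (columns), as log2 of CPM over the mean CPM of the 5 naive libraries; blue is below and red above that mean. The sham columns are blue in nearly every row except Angptl4, Cpt1a and Lipe, and naive 1 is itself blue for Cd36 (68.9 CPM), Acadm (295.7 CPM), Hadhb and Acsl1.

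Per kilobase of annotated exon, Fabp3 was the most abundant member, at 885 ± 103 CPM per kb (SD, n = 5) in naive libraries. Etfb followed at 447 ± 14.1, Acaa2 at 386 ± 39.7, Acadl at 279 ± 16.6 and Pnpla2 at 271 ± 22.0 CPM per kb. Acadl and Pnpla2 lay within their spread of each other, and so did Pnpla2 and the next, Lpl, at 248 ± 31.98. At the other end stood Acot1 at 2.67 ± 0.330, Angptl4 at 3.15 ± 1.198 and the carnitine transporter Slc22a5 at 6.35 ± 0.961 CPM per kb. The order of the 37 levels was nearly the same in sham libraries, where 16 genes kept their exact place. Several of these levels may be uncertain because the gene shares sequence with another gene. In GENCODE M21, 78.6% of the distinct 50-base stretches of Cpt1b transcripts also stand in the read-through gene Gm44502, and 43.8% of those of Etfb stand in Gm45233. Neither read-through gene stood under these names in the count table. Whether reads of Cpt1b or Etfb were left uncounted was not tested. Fabp3 shares 29.2% with its pseudogene Fabp3-ps1, Acadvl 26.9% with Dvl2 on the other strand, Slc22a5 26.1% with Slc22a21, and Acot2 24.5% with Acot1. The other 31 members shared under 20% with other genes.

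Uptake and activation held changes in both directions, with 2 of 6 members lower, 1 higher and 3 not past. Of all genes 15.5% were lower and 17.2% higher. Lpl (chromosome 8, 68880491 to 68907448 on the plus strand of GRCm38), the lipase that frees fatty acids from circulating triglyceride, stood at 2242, 2397, 2475, 2837 and 3057 CPM in naive 1 to 5 and 2471, 1914, 1916, 1811 and 1927 CPM in sham 1 to 5. Sham 1 reached the naive range while the other 4 sham libraries lay below it, and the log2 fold change was -0.37 ± 0.11 (adjusted p = 0.0152). Lpl did not pass without sham 2 (adjusted p = 0.0534) and was at a small value when scaled to heart muscle markers (-0.02).

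Angptl4 (chromosome 17, 33773750 to 33781830 on the minus strand), a secreted inhibitor of that lipase and a known PPAR target, went the other way. It stood at 16.9, 14.4, 9.31, 7.36 and 7.81 CPM in naive 1 to 5 and 16.0, 22.2, 31.4, 34.6 and 24.9 CPM in sham 1 to 5. Only sham 1 lay inside the naive range, just below naive 1, and the mean rose from 11.1 ± 4.24 to 25.8 ± 7.39 CPM (SD, n = 5). The log2 fold change was 1.24 ± 0.26 (adjusted p = 0.00269), a 2.35-fold rise.

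Acsl1 (chromosome 8, 46471037 to 46536051 on the plus strand), the main long-chain acyl-CoA synthetase of heart, stood at 446, 565, 605, 767 and 823 CPM in naive 1 to 5 and 401, 411, 414, 373 and 484 CPM in sham 1 to 5. Naive 1 lay inside the sham range and the other naive libraries above it, and the log2 change was -0.62 ± 0.14 (adjusted p = 0.00288). The fatty acid translocase Cd36 did not pass, at 68.9, 105, 118, 163 and 168 CPM in naive 1 to 5 and 96.5, 92.4, 97.4, 93.0 and 98.2 CPM in sham 1 to 5. Its sham libraries lay close together and its naive libraries spread from below to well above them, giving -0.39 ± 0.19 (adjusted p = 0.135). Cd36 has the lowest GC content of the members, 37.2%. Of 10 runs with a library left out it passed as lower in 1, without naive 1 (log2 fold change -0.54, adjusted p = 0.00299). The highest adjusted p of these runs was 0.301. The fatty acid transport protein Slc27a1 was at -0.24 ± 0.10 (adjusted p = 0.0649) and the heart fatty acid binding protein Fabp3 at -0.16 ± 0.13 (adjusted p = 0.378), and both turned positive with library size alone (0.02 and 0.10). Slc27a1 passed as lower without naive 4, naive 5 or sham 1, at adjusted p of 0.0347, 0.0422 and 0.0209. It also passed as lower with a GC correction (log2 fold change -0.32, adjusted p = 0.00633).

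**Figure D4:**
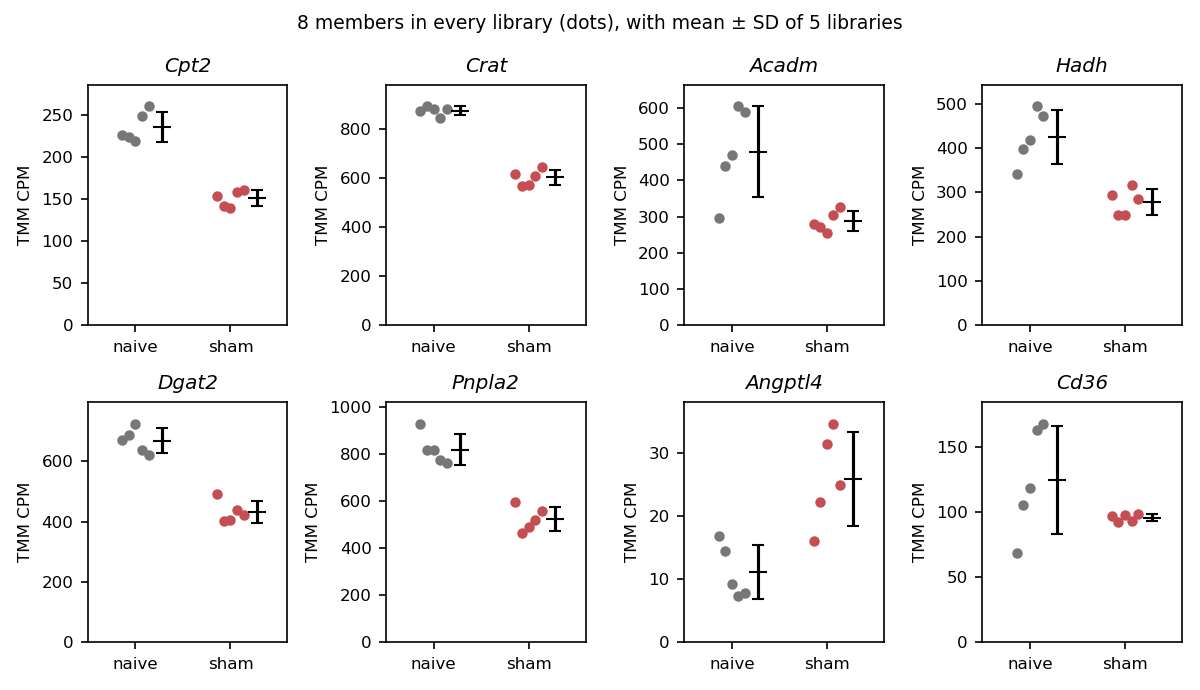
TMM-scaled CPM (y axis, from 0) of 8 members in each of the 5 naive (grey) and 5 sham (red) libraries, with mean and SD beside the dots. Cpt2, Crat, Hadh, Dgat2 and Pnpla2 separate fully, Acadm and Angptl4 overlap through naive 1 or sham 1, and the sham values of Cd36 lie inside its wide naive range.

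Within the carnitine shuttle 6 of 7 members were lower, 0 higher and 1 not past, beside 15.5% lower and 17.2% higher of all genes. When scaled to heart muscle markers, only Cpt2 of these 6 still passed as lower. Cpt2, which transfers acyl groups from carnitine back to CoA inside the mitochondrion, stood at 227, 224, 219, 249 and 261 CPM in naive 1 to 5 and 154, 143, 140.03, 159 and 161 CPM in sham 1 to 5. The groups lay far apart relative to their spread, with a log2 fold change of -0.64 ± 0.08 (adjusted p = 1.84e-05). Crat (chromosome 2, 30400471 to 30415813 on the minus strand), which makes acetylcarnitine and so buffers acetyl-CoA, stood at 876, 894, 884, 847 and 885 CPM in the naive and 618, 569, 574, 612 and 647 CPM in the sham libraries. Its naive libraries were the tightest of the shuttle genes and all sham libraries lay below them (-0.54 ± 0.07, adjusted p = 4.15e-05).

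Mlycd (chromosome 8, 119394878 to 119411102 on the plus strand) breaks down malonyl-CoA, the inhibitor of the entry step of the shuttle. It stood at 281, 273, 259, 207 and 194 CPM in the naive and 184, 155, 164, 161 and 166 CPM in the sham libraries. Every sham library lay below every naive library, and the log2 change was -0.55 ± 0.11 (adjusted p = 9.36e-04). The plasma membrane carnitine transporter Slc22a5 fell by the most in this step, from 19.5 ± 2.95 CPM in naive to 12.3 ± 2.62 in sham libraries (SD, n = 5; -0.67 ± 0.14, adjusted p = 0.00182), and its groups did not overlap. The carnitine-acylcarnitine translocase Slc25a20 was lower at -0.38 ± 0.10 (adjusted p = 0.00875), with sham 4 inside the naive range.

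Carnitine palmitoyltransferase 1, the entry and control point of the shuttle, has a muscle form, Cpt1b, and a form common in liver and in many other cells, Cpt1a. Cpt1b (chromosome 15, 89416405 to 89425863 on the minus strand) stood at 58.3, 59.4, 51.6, 48.0 and 47.5 CPM in the naive and 40.1, 39.4, 40.6, 35.1 and 41.4 CPM in the sham libraries, without overlap, and changed by -0.43 ± 0.09 (adjusted p = 0.00158). Cpt1a (chromosome 19, 3322334 to 3385733 on the plus strand) stood at 43.8, 57.8, 53.2, 50.9 and 58.1 CPM in the naive and 60.3, 54.0, 63.5, 44.7 and 62.3 CPM in the sham libraries, with overlapping groups, and was at 0.11 ± 0.11 (adjusted p = 0.482). With library size alone Cpt1a passed as higher (0.37, adjusted p = 0.0292), as it did when scaled to heart muscle markers (0.46, adjusted p = 0.00909).

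A ratio of 2 genes within a library does not depend on that scaling. The ratio of Cpt1a to Cpt1b counts was 0.752, 0.972, 1.03, 1.06 and 1.22 in the naive and 1.504, 1.37, 1.56, 1.27 and 1.51 in the sham libraries. The groups did not overlap, and the mean log2 ratio rose by 0.53 (exact two-sided permutation p = 0.00794, 0.0238 adjusted over the 6 pairs), the smallest p that 5 against 5 libraries allow. The ratio was thus 1.45-fold higher in sham ventricles. Most Cpt1b sequence is shared with Gm44502, which did not stand under that name in the count table. Whether this affects the absolute value of the ratio was not tested. Cpt1a is expressed in many cell types other than heart muscle, and fibroblast and macrophage markers rose in the same libraries. Their part in this ratio was not tested.

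**Figure D5:**
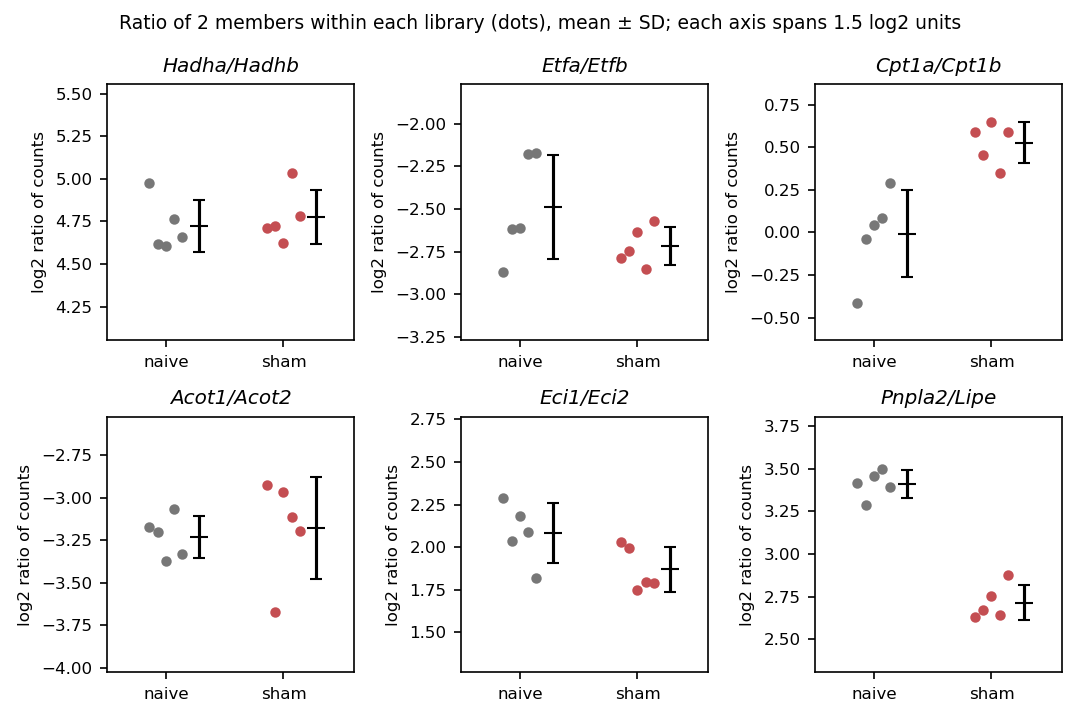
Log2 ratio of counts (y axis, 1.5 log2 units in each panel) of 6 pairs of members within each naive (grey) and sham (red) library, with mean and SD. Cpt1a/Cpt1b and Pnpla2/Lipe separate without overlap, by 0.53 and -0.70, while the groups of the other 4 pairs overlap.

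Within beta-oxidation 12 of 13 members were lower, 0 higher and 1 not past, beside 15.5% lower and 17.2% higher of all genes. The 4 acyl-CoA dehydrogenases, which take the first step on chains of different length, all fell. The long-chain enzyme Acadl (chromosome 1, 66830839 to 66863277 on the minus strand) stood at 599.8, 548, 548, 587 and 517 CPM in naive 1 to 5 and 410.0, 374, 361, 393 and 406 CPM in sham 1 to 5, with no overlap, and changed by -0.53 ± 0.08 (adjusted p = 8.34e-05). The short-chain enzyme Acads (chromosome 5, 115110299 to 115119346 on the minus strand) stood at 364, 370.1, 349.9, 322 and 307 CPM in the naive and 257, 241, 222, 259.9 and 232 CPM in the sham libraries, also without overlap (-0.50 ± 0.08, adjusted p = 2.60e-04). The very-long-chain enzyme Acadvl was at -0.45 ± 0.08 (adjusted p = 4.99e-04), with non-overlapping groups.

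The medium-chain enzyme Acadm showed the largest fall of all members, at -0.74 ± 0.16 (adjusted p = 0.00194). Its naive mean was 479.7 ± 125 CPM and its sham mean 287.6 ± 27.8 CPM (SD, n = 5). Naive 1 stood at 295.7 CPM, inside the sham range of 255 to 326 CPM, while the other naive libraries lay between 439 and 605 CPM. Without naive 1 the log2 fold change was -0.87 (adjusted p = 1.84e-05).

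The mitochondrial trifunctional protein, which carries out the later steps on long chains, is built of an alpha subunit, Hadha, and a beta subunit, Hadhb. Hadha (chromosome 5, 30118304 to 30155162 on the minus strand) stood at 968, 1165, 1216, 1480.0 and 1419.8 CPM in naive 1 to 5 and 804, 775, 755, 1032 and 970.2 CPM in sham 1 to 5. Hadhb (chromosome 5, 30155248 to 30184593 on the plus strand) stood at 30.8, 47.5, 50, 54.4 and 56.2 CPM in the naive and 30.7, 29.3, 30.7, 31.4 and 35.3 CPM in the sham libraries. Both fell, by log2 fold changes of -0.53 ± 0.12 (adjusted p = 0.00397) and -0.60 ± 0.13 (adjusted p = 0.00218), and in both naive 1 lay inside the sham range, while sham 4 and sham 5 reached the naive range. The ratio of Hadha to Hadhb counts was 31.4, 24.5, 24.3, 27.2 and 25.3 in the naive and 26.2, 26.4, 24.6, 32.8 and 27.5 in the sham libraries, and the difference of its mean log2 value was 0.05 (exact two-sided permutation p = 0.556, 0.667 adjusted over the 6 pairs). Per kilobase of exon Hadha stood at 143 ± 23.6 and Hadhb at 7.24 ± 1.53 CPM per kb in naive libraries (SD, n = 5). The protein complex holds both subunits in equal number; the cause of this gap in RNA was not tested. Of the 50-base stretches of Hadhb, 18.1% stand also in the pseudogene Gm13910.

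The genes of these 2 subunits lie head to head and share a promoter region. In RefSeq on GRCm38.p6 their start sites are at 30154980 for Hadha and 30155253 for Hadhb on chromosome 5, with 272 bases between them. The Hadha promoter window, chr5:30154931-30155230 on the minus strand, is shown because both genes are read outward from it and fell together; capitals mark the bases between the start sites that the window holds.
Hadha promoter: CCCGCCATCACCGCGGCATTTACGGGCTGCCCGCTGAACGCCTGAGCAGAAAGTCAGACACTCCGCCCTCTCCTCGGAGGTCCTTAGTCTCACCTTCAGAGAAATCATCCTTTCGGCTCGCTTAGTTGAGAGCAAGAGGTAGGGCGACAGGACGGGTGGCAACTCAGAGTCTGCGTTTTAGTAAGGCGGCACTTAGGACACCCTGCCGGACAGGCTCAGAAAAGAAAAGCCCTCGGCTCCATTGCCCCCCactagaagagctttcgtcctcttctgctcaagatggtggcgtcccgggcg

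Of the enzymes that follow, the hydratase Echs1 was lower at -0.45 ± 0.09 (adjusted p = 0.00129), and the short-chain hydroxyacyl-CoA dehydrogenase Hadh at -0.61 ± 0.11 (adjusted p = 4.38e-04), both with non-overlapping groups. The thiolase Acaa2, which splits off acetyl-CoA in the last step, stood at 518, 546, 569, 667 and 624 CPM in the naive and 368, 364, 323, 464 and 402 CPM in the sham libraries. All its sham libraries lay below all naive libraries, and the log2 change was -0.61 ± 0.10 (adjusted p = 3.52e-04). The peroxisomal thiolase Acaa1a, by contrast, did not pass, at -0.13 ± 0.08 (adjusted p = 0.237), and was positive with library size alone (0.14). With a GC correction Acaa1a passed as lower (-0.19, adjusted p = 0.0360).

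Unsaturated fatty acids need isomerases and a reductase to enter the cycle. The isomerase Eci1 stood at 189, 204, 226, 243 and 228 CPM in the naive and 155, 144, 115, 180.4 and 144 CPM in the sham libraries, without overlap (-0.56 ± 0.11, adjusted p = 0.00105). Eci2, a related isomerase found in mitochondria and peroxisomes, stood at 38.6, 49.8, 49.8, 57.0 and 64.7 CPM in the naive and 37.9, 36.1, 34.2, 52.0 and 41.7 CPM in the sham libraries. Its groups overlapped and it passed by a narrow margin, at -0.36 ± 0.14 (adjusted p = 0.0497); it did not pass in 8 of 10 runs with a library left out, at adjusted p of up to 0.146 without sham 2, and held without naive 1 or sham 4. The ratio of Eci1 to Eci2 changed by -0.21 (exact two-sided permutation p = 0.0476, 0.0952 adjusted over the 6 pairs). The reductase Decr1 was lower at -0.61 ± 0.14 (adjusted p = 0.00380), with naive 1 inside the sham range.

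Electron transfer from the acyl-CoA dehydrogenases runs through a flavoprotein of 2 subunits, Etfa and Etfb, to the membrane dehydrogenase Etfdh. Etfdh (chromosome 3, 79603788 to 79629500 on the minus strand) stood at 279, 281, 268, 308 and 306 CPM in naive 1 to 5 and 202, 195, 188, 171 and 189.9 CPM in sham 1 to 5. The groups were well apart, with a log2 fold change of -0.61 ± 0.08 (adjusted p = 2.10e-05). Etfa stood at 72.1, 86.8, 87.1, 114 and 109.5 CPM in the naive and 65.0, 66.9, 63.2, 81.1 and 70.1 CPM in the sham libraries, with naive 1 inside the sham range (-0.44 ± 0.12, adjusted p = 0.00938).

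Etfb stood at 526, 534, 532, 519 and 493 CPM in the naive and 449, 449, 393, 585 and 416 CPM in the sham libraries. Here 4 sham libraries lay below all naive libraries and sham 4 above them, and the gene did not pass, at -0.18 ± 0.10 (adjusted p = 0.178). Of 10 runs with a library left out it passed as lower in 1, without sham 4 (log2 fold change -0.26, adjusted p = 0.0104). The highest adjusted p of these runs was 0.384. With library size alone its value was 0.08. The ratio of Etfa to Etfb counts ranged from 0.137 to 0.222 in naive and from 0.139 to 0.168 in sham libraries, and its log2 mean differed by -0.23 (exact two-sided permutation p = 0.198, 0.298 adjusted over the 6 pairs).

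Acyl-CoA thioesterases release free fatty acids from CoA, and the uncoupling protein Ucp3 is a mitochondrial carrier that rises with fatty acid supply. Of these 4 genes 3 were lower, 0 higher and 1 not past, beside 15.5% lower and 17.2% higher of all genes. The mitochondrial thioesterase Acot2 (chromosome 12, 83987861 to 83993873 on the plus strand) stood at 111, 99.7, 97.6, 91.4 and 91.1 CPM in naive 1 to 5 and 64.7, 62.3, 67.9, 62.8 and 72.9 CPM in sham 1 to 5, with a clear gap between the groups (-0.57 ± 0.08, adjusted p = 6.09e-05). Its cytosolic neighbour and close paralog Acot1 (chromosome 12, 84009490 to 84018371 on the plus strand) stood at 12.2, 10.8, 9.38, 10.9 and 9.01 CPM in the naive and 8.47, 4.85, 8.64, 7.22 and 7.93 CPM in the sham libraries. It was the least abundant member and changed by -0.49 ± 0.15 (adjusted p = 0.0222); it did not pass without sham 2 (adjusted p = 0.0633) or sham 4 (adjusted p = 0.0548). The ratio of Acot1 to Acot2 differed by 0.05 (exact two-sided permutation p = 0.746, 0.746 adjusted over the 6 pairs). Of the 50-base stretches of Acot1, 13.6% stand also in Acot2, and 24.5% of those of Acot2 stand in Acot1. The effect of this shared sequence on the ratio was not tested.

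Ucp3 (chromosome 7, 100472990 to 100486432 on the plus strand) stood at 69.0, 61.9, 52.6, 38.2 and 39.8 CPM in the naive and 28.4, 28.3, 35.1, 41.2 and 41.5 CPM in the sham libraries. Naive 1, 2 and 3 were high and naive 4 and 5 lay inside the sham range, with a log2 fold change of -0.57 ± 0.17 (adjusted p = 0.0170). It did not pass without sham 2 (adjusted p = 0.0562). The thioesterase Acot13 did not pass, at -0.30 ± 0.12 (adjusted p = 0.0599), with sham 4 as its highest sham library. It passed as lower without sham 4 (adjusted p = 0.00419) or without naive 2 (adjusted p = 0.0479), and was at 0.03 when scaled to heart muscle markers.

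Among lipid droplet genes 3 of 4 were lower, 0 higher and 1 not past, beside 15.5% lower and 17.2% higher of all genes. Dgat2 (chromosome 7, 99153658 to 99182719 on the minus strand), which makes triglyceride from diacylglycerol, stood at 668, 687, 724, 636 and 622 CPM in naive 1 to 5 and 492, 401, 405, 437 and 422 CPM in sham 1 to 5. No library of either group came near the other, and the log2 fold change was -0.63 ± 0.08 (adjusted p = 2.97e-05). Pnpla2 (chromosome 7, 141455198 to 141460743 on the plus strand), which encodes adipose triglyceride lipase, the first enzyme of triglyceride breakdown, stood at 927, 816, 814, 772 and 759 CPM in the naive and 593, 465, 491, 517 and 555 CPM in the sham libraries. It fell by a like amount, -0.64 ± 0.09 (adjusted p = 5.30e-05), so that a gene of triglyceride synthesis and one of its breakdown were lower in the same libraries.

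Plin5 (chromosome 17, 56111601 to 56117596 on the minus strand), which coats droplets and ties them to mitochondria, stood at 244, 243, 207, 188 and 198 CPM in the naive and 181, 174, 184, 181 and 179 CPM in the sham libraries. The sham libraries were nearly identical and lay just below the lowest naive library (-0.26 ± 0.09, adjusted p = 0.0289). The call did not hold without naive 1, 2 or sham 2, 3 or 5 (adjusted p of 0.0502 to 0.0926), and the value was 0.00 with library size alone and 0.08 when scaled to heart muscle markers.

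Hormone-sensitive lipase, Lipe (chromosome 7, 25379527 to 25398710 on the minus strand), which takes the next step after Pnpla2, did not pass the test. It stood at 86.8, 83.5, 73.9, 68.3 and 72.2 CPM in the naive and 95.9, 73.0, 72.7, 82.7 and 75.6 CPM in the sham libraries, with overlapping groups and a value of 0.06 ± 0.10 (adjusted p = 0.702). It was higher past the threshold with library size alone (0.32, adjusted p = 0.0163) and when scaled to heart muscle markers (0.39, adjusted p = 0.00733), and turned slightly negative with a GC correction (-0.02). The ratio of Pnpla2 to Lipe counts does not depend on the scaling of the libraries, but no GC correction was applied to it. It was 10.7, 9.76, 11.01, 11.3 and 10.5 in the naive and 6.19, 6.38, 6.75, 6.26 and 7.34 in the sham libraries, and the log2 mean changed by -0.70 (exact two-sided permutation p = 0.00794, 0.0238 adjusted over the 6 pairs). The highest sham ratio lay well below the lowest naive ratio. Of the exon bases of Lipe, 15.6% overlap 4732471J01Rik on the other strand; these libraries do not mark strand, and that gene had 41 counts over the 5 naive and 40 over the 5 sham libraries.

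A wider list of 90 other genes of fatty acid and triglyceride metabolism moved in both directions. Of the 78 that were high enough to be tested, 27 were lower, 8 higher and 43 not past, beside 15.5% lower and 17.2% higher of all genes, with a median log2 fold change of -0.24. With library size alone 4 were lower and 15 higher, beside 2.08% and 32.8% of all genes. With the heart muscle markers 2 were lower and 21 higher, beside 0.954% and 40.4% of all genes. Of 13 genes grouped under mitochondrial oxidation, 8 were lower and 0 higher. The lower ones were Acad8, Acad9, Acad11, Acat1, Ech1, Mcat, Nudt7 and Acsm5. Not all genes of this group are enzymes of mitochondrial oxidation, so its count does not stand for that pathway alone. Other uptake and activation genes were lower in 1 of 11 cases and higher in 1.

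The lower genes of smallest p again covered uptake, synthesis and breakdown. The lipoprotein receptor Vldlr fell from 266 ± 13.7 CPM in naive to 156 ± 33.4 in sham libraries (SD, n = 5; -0.76 ± 0.13, adjusted p = 2.27e-04). Gpam, the mitochondrial enzyme that starts glycerolipid synthesis, changed by -0.71 ± 0.11 (adjusted p = 1.32e-04), and Fitm2, which helps droplets to form, by -0.47 ± 0.07 (adjusted p = 9.95e-05). Abhd5, the activator of the lipase encoded by Pnpla2, changed by -0.55 ± 0.09 (adjusted p = 1.63e-04), and the droplet coat protein Plin4 by -0.46 ± 0.08 (adjusted p = 5.56e-04). Acacb, which makes the malonyl-CoA that Mlycd removes, changed by -0.64 ± 0.11 (adjusted p = 2.48e-04), so that genes for making and for removing this inhibitor were both lower. With library size alone Vldlr, Gpam, Abhd5 and Acacb still passed as lower and Fitm2 and Plin4 did not, and with the heart muscle markers Vldlr and Gpam passed and the other 4 did not; all 6 values were negative under both.

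Genes of uncoupling, activation, desaturation and droplet formation stood among the higher genes of smallest p. Ucp2, a mitochondrial carrier common in immune cells, rose from 89.2 ± 6.53 CPM in naive to 194 ± 7.74 in sham libraries (SD, n = 5; 1.12 ± 0.08, adjusted p = 3.03e-08). Cpt1c, a form known from brain, rose by 1.18 ± 0.12 (adjusted p = 1.29e-06) and the stearoyl-CoA desaturase Scd2 by 0.91 ± 0.12 (adjusted p = 2.88e-05). The acyl-CoA synthetase Acsl5 rose by 0.67 ± 0.15 (adjusted p = 0.00233), the phosphatidate phosphatase Lpin3 by 0.52 ± 0.11 (adjusted p = 0.00159) and seipin (Bscl2), which shapes droplets at the endoplasmic reticulum, by 0.30 ± 0.08 (adjusted p = 0.00805). All 6 were also higher with library size alone and with the heart muscle markers, and in each the groups did not overlap (13.6% of all genes tested had every sham library above every naive one). The rise of macrophage and fibroblast markers in the same libraries is given above, and its part in these values was not tested.

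Promoter windows, from 250 bases before to 50 after the start of the gene, were found in RefSeq (GRCm38.p6) for 29 of the 37 members. They were searched on both strands for the element bound by PPAR with its partner RXR, a pair of AGGTCA half-sites with 1 base of any kind between them, with at most 2 mismatches, and for the element of the estrogen-related receptors, TNAAGGTCA, with none. The first was found in 5 of the 29 member genes (17.2%) and in 4.40% of all 27025 genes with a window. The second was found in 0 of the 29 and in 1.43% of all genes. A match is a description of letters and no match says only that the letters are not in this window. The matches are shown because these genes are members of a pathway known for this element; each reads along the element, with capitals where the letter is that of the element.
Cd36: AaGTCAgAGGcCA
Ucp3: AGGTttcAGGTCA
Echs1: AGGTCAcgGGTCc
Etfa: AGGgCAaAGGTaA
Slc25a20: AGGTgAaAGGTCg

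Of these 5 genes Ucp3, Echs1, Etfa and Slc25a20 were lower in sham ventricles and Cd36 did not pass. Echs1 was the one whose groups did not overlap. Its window, chr7:140116372-140116671 on the minus strand of GRCm38.p6, is shown with the match in capitals, which begins 83 bases before the start site.
Echs1 promoter: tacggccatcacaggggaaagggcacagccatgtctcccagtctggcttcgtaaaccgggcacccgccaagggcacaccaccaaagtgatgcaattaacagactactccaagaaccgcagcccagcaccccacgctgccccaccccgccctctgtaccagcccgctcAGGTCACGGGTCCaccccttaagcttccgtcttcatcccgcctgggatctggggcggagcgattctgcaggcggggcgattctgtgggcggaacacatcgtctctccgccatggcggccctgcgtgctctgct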

How the data were processed

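The deposited table, whose name gives HTSeq and GRCm38, holds unnormalized read counts by Ensembl identifier. Libraries were single-end without strand information, per the labels' protocols. TopHat2 2.1.1, Bowtie2, edgeR, DESeq and HTSeq stand in the submitters' processing notes with no role given. No source used here gives the annotation release or counting mode. GC percent, a column that the authors deposited beside the counts, served only for a correction and a description.

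The 41264 rows held 574 repeats of an identifier with identical counts, which left 40690 genes, all with a name. A floor of 3 counts stood at 0.139 to 0.310 CPM and covers counting error only. Genes were kept by filterByExpr (minimum count 10, minimum total 15), scaled with TMM factors and tested with edgeR 4.0.16 by its robust quasi-likelihood F test on the group alone, adjusted over all 13622 genes; an SE is the size of the log2 change divided by the root of F. All 37 members passed the filter. Ratios of 2 members used counts plus 0.5 and the exact permutation test over 252 assignments of the libraries. Coordinates, exon lengths and shared sequence come from GENCODE M21 on GRCm38. On simulated counts for this comparison (13513 genes tested), 43.3% of genes changed 1.5-fold, 87.3% changed 2-fold and 98.5% changed 4-fold were recovered, and 4 of 153 calls were false. The simulation changed only 200 genes, whereas 2113 were called lower and 2342 higher in the real data. These shares therefore do not carry over to the fit reported.

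The members, steps and lists were chosen with earlier results of these data known. The rule gave 5 steps; thioesterases and Ucp3 were set apart as another. Values in every library are given for up to 3 members of smallest p in each step, any higher member and the members of the 6 pairs; Cd36 was added with its values known, as were the peroxisomal genes. Of the wider list, up to 6 lower and 6 higher genes of smallest p are named. The alternatives were DESeq2 1.42.0, limma 3.58.1 voom, 1 surrogate variable from sva 3.50.0, other scalings and filters, removal of the 20 most abundant genes, a GC correction, the replicate number as a block, and libraries left out, in R 4.3.3.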

Additional observations from a re-analysis of the deposited data

Results flagged for a closer look

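In 3 of 86 groups of 5 values looked at (37 members and 6 ratios in each of the 2 groups of mice), 1 library stood apart from the other 4 by more than Dixon's 95% limit; chance gives about 1 in 20. Slc22a5 was at 24.6 CPM in naive 1, with the next naive library at 18.8 CPM. Lpl was at 2471 CPM in sham 1, with the next sham library at 1927 CPM. Acot13 was at 130.3 CPM in sham 4, with the next sham library at 95.1 CPM.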

How the results depend on the processing

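The 28 lower members were 27 to 33 under the other tests, filters, RLE and upper quartile factors and corrections, and 23 (without sham 2) to 29 (without sham 4) with a library left out. The share of all genes called lower moved too: it was 15.5% in the fit reported, 5.83% with no filter (28 members), 24.0% with voom (33 members), 10.6% without sham 2 and 13.1% without sham 4. Of the 28, 23 passed in each of the 10 runs with a library left out. Library size alone gave 14 lower and 3 higher members with a median of -0.23, and the heart muscle markers 7 and 3 with -0.16; of all calls, 94.0% and 97.7% were then higher, against 52.6%. For the wider list these scalings gave 4 lower and 15 higher, and 2 and 21. Values that changed sign were, with library size alone and then with the heart muscle markers, Acaa1a 0.14 and 0.21, Etfb 0.078 and 0.15, Fabp3 0.10 and 0.18, Plin5 0.0031 and 0.079 and Slc27a1 0.022 and 0.095, and Acot13 0.031 with the markers. Lipe turned to -0.0048 with voom, -0.020 with the GC correction, -0.026 with the replicate block and GC correction, and ran from -0.019 to 0.11 with a library left out. With a library left out the log2 ratios ran from -0.015 to 0.11 for Hadha/Hadhb, from -0.0094 to 0.18 for Acot1/Acot2 and from -0.28 to -0.16 for Eci1/Eci2, which passed without naive 5 (exact permutation, adjusted p = 0.0476). The cause of these changes was not tested.

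Samples of the 2 groups share replicate numbers. Deviations of same-numbered libraries correlated at 0.23, 0.04, 0.01, 0.29 and 0.29 for numbers 1 to 5, and only libraries 1, 4 and 5 matched their own number best, so the numbers were not taken as pairs. With the replicate number as a block, 29 members were lower and 0 higher, beside 20.6% and 19.0% of all genes. Angptl4 did not pass (edgeR, adjusted p = 0.0608), nor did Ucp3 (adjusted p = 0.148). With the block and the GC correction, 32 members were lower and 0 higher, beside 21.9% and 19.5% of all genes. For the ratios, paired differences give the same 0.53 for Cpt1a/Cpt1b and -0.70 for Pnpla2/Lipe, with an exact sign-flip permutation adjusted p = 0.125; 5 pairs cannot go below 0.0625.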

Other observations

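Peroxisomes shorten very long and branched fatty acids before mitochondria take them up. Of 14 tested peroxisomal genes outside the 37, 8 were lower, 0 higher and 6 not past, beside 15.5% lower and 17.2% higher of all genes, with a median log2 fold change of -0.35. The call depended on the scaling: none of the 8 passed with library size alone (edgeR, adjusted p of 0.0564 to 0.900) or with the heart muscle markers (0.101 to 0.621), and Hsd17b4 turned positive under both (0.02 and 0.10). Phyh, which starts the breakdown of phytanic acid, fell from 345 ± 71.5 CPM in naive to 227 ± 12.6 in sham libraries (SD, n = 5; edgeR, -0.60 ± 0.12, adjusted p = 0.00124). The membrane transporter Abcd3 changed by -0.48 ± 0.09 (adjusted p = 9.11e-04) and the bifunctional enzyme Ehhadh by -0.55 ± 0.14 (adjusted p = 0.00794). These 3 genes were named after their values were seen. With library size alone Phyh was at -0.34, Ehhadh at -0.28 and Abcd3 at -0.22.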
